A study of Mus musculus with 6 samples.

Results

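The transcriptional co-activators YAP (gene Yap1) and TAZ (gene Wwtr1), a pair of the TEAD factors they bind (Tead1, Tead3) and 6 of their direct target genes (Ccn1, Ccn2, Ankrd1, Amotl2, Ajuba, Lats2) were followed in RNA from MOC2 cells. These 10 genes were chosen by symbol, each matching 1 row of the 55418 gene symbols in the deposited count table. MOC2 is a mouse head and neck squamous carcinoma line free of papillomavirus. The 6 libraries comprised 3 from cells labelled EphA4 knockout, all of the single H3 clone, and 3 from cells labelled control CRISPR. The design asks how transcript levels differ between cells edited at Epha4, which encodes a receptor tyrosine kinase for ephrins, and control-edited cells. Cells of both kinds were grown in serum-containing medium with EGF, hydrocortisone and insulin, received no treatment, and were thawed and passaged 2 times before harvest.

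YAP and TAZ carry signals on cell shape, contact and tension into the nucleus, where they bind DNA through TEAD factors. The Hippo kinases restrain them: MST kinases activate LATS kinases, which phosphorylate YAP and TAZ so that they stay in the cytoplasm. Several of their target genes, among them Lats2, Amotl2 and Ajuba, encode parts of the Hippo pathway itself. YAP and TAZ are regulated largely by phosphorylation and localisation, neither of which is seen in RNA.

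Library totals ran from 35807059 to 37174736 counts in the EphA4 knockout libraries and from 35115926 to 41775031 counts in the control libraries. Levels are given in CPM, each count scaled to the size of its library with TMM correction. Epha4 transcripts averaged 99.7 ± 3.27 CPM in the libraries labelled EphA4 knockout and 55.1 ± 4.26 CPM in the control libraries (SD, n = 3 each). The targeted transcript was thus higher, not lower, under the knockout label, and gene counts cannot show whether the edit is present. All directions given here describe the libraries carrying that label, called knockout-labelled for short. Of the squamous epithelial markers, Krt5 and Trp63 had at most 2 counts in any library. The 8 markers together summed to 4117 to 4163 CPM in the knockout-labelled libraries and 3896 to 3945 CPM in control. Krt8, Krt18, Epcam and Cdh1 carried the sum but did not all go the same way. Epcam averaged 627 CPM in the knockout-labelled libraries and 954 CPM in control, and Krt14 averaged 1.83 and 3.72 CPM. Krt8, Krt18, Cdh1 and Sfn were higher in the knockout-labelled libraries, Sfn at 108 CPM against 56.6 CPM in control. The 8 fibroblast and pericyte markers summed to 1.93 to 2.03 CPM in the knockout-labelled libraries and 48.3 to 51.4 CPM in control. Lum was at 0 everywhere and Dcn at 0 in the knockout-labelled libraries. Col1a2 went the other way, with 8, 11 and 10 counts in the knockout-labelled libraries and 4, 0 and 1 in control. The 6 leukocyte markers summed to 6.01 to 6.34 CPM in the knockout-labelled libraries and 21.7 to 28.4 CPM in control, nearly all of it Cd14. Cd3e, Itgam and Adgre1 were at 0. Ptprc did not follow Cd14, with 18, 16 and 7 counts in the knockout-labelled libraries and 3, 1 and 10 in control. The 4 endothelial markers summed to 0.587 to 1.06 CPM in the knockout-labelled libraries and 1.10 to 1.46 CPM in control. The part of these markers in the results was not tested. Bulk RNA does not show which cells made the marker transcripts, and fewer cells of a type and less RNA per cell cannot be told apart. EphA4 knockout replicate 3 stood apart from its group, with a chi-square per degree of freedom of 34.1 and 35.1 against the other two, which differed by 4.63. Whether samples within a group were separate cultures is not stated, so the p-values cover sample-to-sample spread that may only be technical. With a single H3 clone, differences particular to that clone cannot be told apart from the edit, and no p-value covers them.

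TEAD factors recognise the sequence CATTCC, which reads GGAATG on the opposite strand. RefSeq promoter windows of GRCm38.p6, running from 250 bases before an annotated start site to 50 after it, were matched by symbol for 8 of the 10 genes, all but Tead1 and Ccn2. All 8 held the motif in at least 1 of their windows, against 16.6% of the 27025 genes with a window. By window the motif was present in 10 of 12, against 14.7% of 32851. With 1 further letter required (ACATTCC or GGAATGT), 5 of the 8 genes held a match, against 4.47% of all genes. These genes were listed as YAP-TEAD factors and targets, and a match of letters is not a measured binding site. The 250 bases before the start site are shown for 4 targets that did not all behave alike, with the motif in capitals. Amotl2 was higher, Ccn1 and Ankrd1 were both slightly lower and Ajuba did not pass the test:
Amotl2, chr9:102717554-102717803, plus strand: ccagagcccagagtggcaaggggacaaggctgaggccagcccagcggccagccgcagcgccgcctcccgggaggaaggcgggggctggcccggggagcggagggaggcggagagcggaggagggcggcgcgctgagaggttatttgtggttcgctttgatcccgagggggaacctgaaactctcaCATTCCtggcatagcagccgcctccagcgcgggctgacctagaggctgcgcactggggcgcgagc
Ccn1, chr3:145649986-145650235, minus strand: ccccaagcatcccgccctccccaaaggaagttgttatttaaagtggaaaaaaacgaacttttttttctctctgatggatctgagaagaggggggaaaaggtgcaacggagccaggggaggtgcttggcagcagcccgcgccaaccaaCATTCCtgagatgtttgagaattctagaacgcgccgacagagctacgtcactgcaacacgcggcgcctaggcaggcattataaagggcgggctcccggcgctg
Ankrd1, chr19:36119845-36120094, minus strand: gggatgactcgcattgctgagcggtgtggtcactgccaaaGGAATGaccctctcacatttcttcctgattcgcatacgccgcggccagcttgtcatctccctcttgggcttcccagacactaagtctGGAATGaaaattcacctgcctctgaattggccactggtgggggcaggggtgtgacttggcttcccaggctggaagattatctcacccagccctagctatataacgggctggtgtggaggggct
Ajuba, chr14:54577662-54577911, minus strand: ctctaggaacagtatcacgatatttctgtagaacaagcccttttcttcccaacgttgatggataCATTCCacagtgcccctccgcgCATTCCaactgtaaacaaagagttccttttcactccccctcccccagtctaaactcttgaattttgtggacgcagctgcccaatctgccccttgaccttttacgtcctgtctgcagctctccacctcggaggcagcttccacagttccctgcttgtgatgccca
The first base of the motif stands 65 bases before the start site in Amotl2 and 103 in Ccn1. Ankrd1 has a match at 210 and another at 123 bases, both in the GGAATG orientation, and Ajuba has them at 186 and 164 bases. Among the factors, Yap1 has a match at 141 bases, and the pair of overlapping Wwtr1 windows share a single match, 136 or 170 bases before their start sites. Of its 3 windows, Tead3 had a match at 182 bases in one and matches at 123 and 114 bases, and 1 after the start site, in another. The match of Lats2 lies after the start site, at position 5. Targets holding the motif thus included genes that were higher, lower and not called. The coordinates are those of GRCm38.p6, whereas the submitters' processing notes name GRCm39 for the counts.

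**Figure D1:**
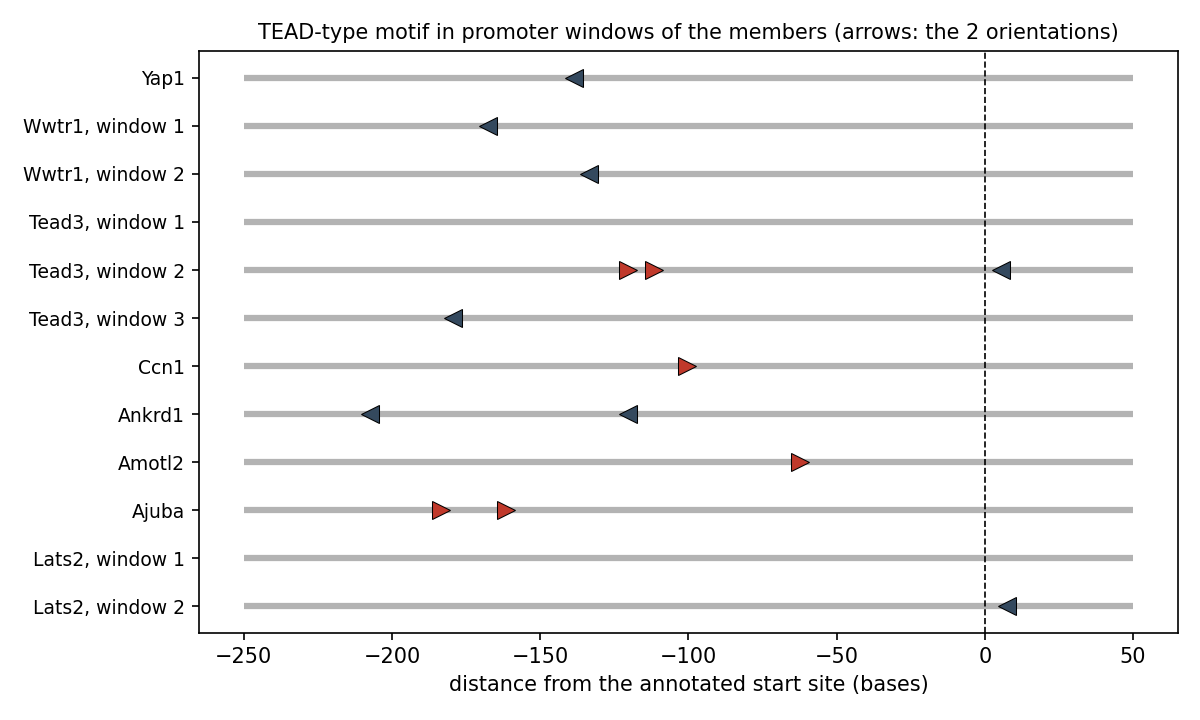
Position of CATTCC (arrows to the right) and GGAATG (arrows to the left) in the 12 promoter windows of the 8 genes with a window; the x axis is the distance from the annotated start site in bases, and each grey line is 1 window. In 10 of 12 windows at least 1 match is present, and most lie between 65 and 210 bases before the start site.

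Taking the 10 genes together, Amotl2, Tead1 and Yap1 rose and Ccn2, Tead3, Ankrd1 and Ccn1 fell in the knockout-labelled libraries, while Wwtr1, Ajuba and Lats2 did not pass the test. The changes were large for 2 targets in opposite directions: Amotl2 was 2.21-fold higher and Ccn2 was 2.58-fold lower. All 10 passed the filter on low counts and were tested with edgeR's quasi-likelihood test at an adjusted p of 0.05 over all 15199 tested genes. The 3 higher members stand beside 32.7% of all tested genes called higher, and the 4 lower members beside 38.8% called lower. In all 7 of 10 passed, beside 71.5% of all tested genes, and the groups did not overlap for 8 of 10, beside 76.1%. The median log2 fold change was -0.04 over the members and -0.04 over all tested genes. As a set the members are therefore close to the background of this comparison, and what follows concerns how they differ from each other.

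**Figure D2:**
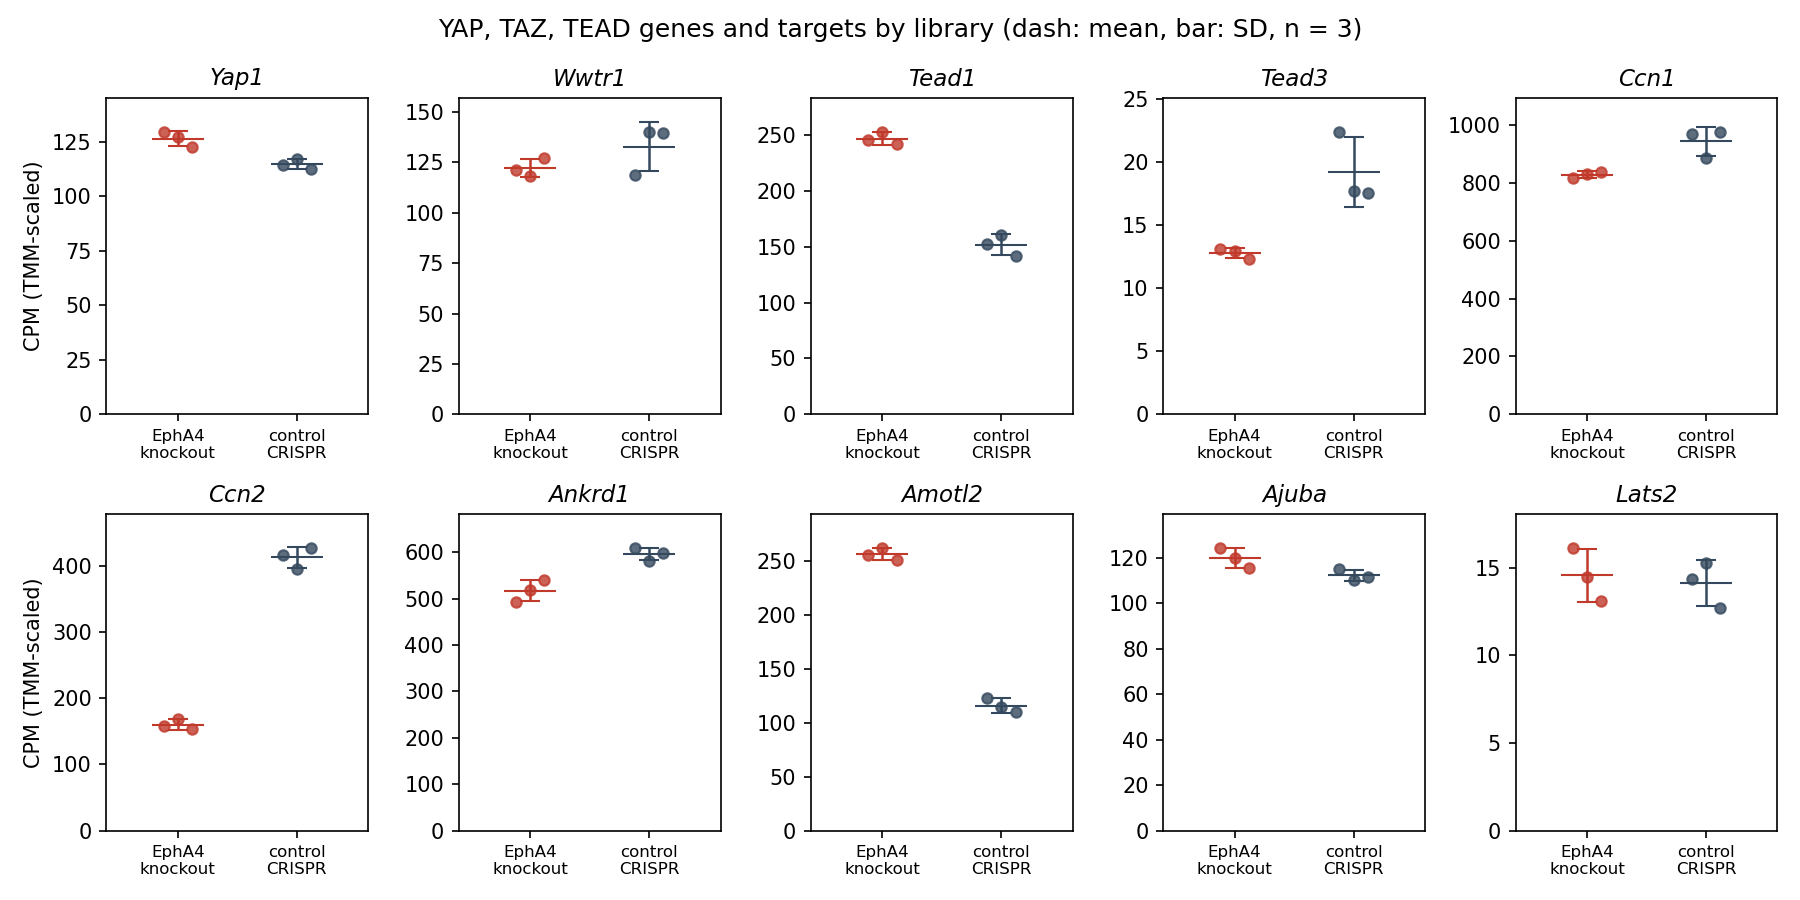
Level of each of the 10 genes in every library, in TMM-scaled CPM on a linear axis from 0; points are libraries, dashes are means and bars are SD (n = 3 per group), with EphA4 knockout in red and control CRISPR in dark blue. Ccn2 and Amotl2 show the widest separation, in opposite directions, while the groups overlap for Wwtr1 and Lats2.

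The co-activators themselves barely differed. Yap1 had 130, 127 and 123 CPM in the knockout-labelled libraries and 115, 117 and 113 CPM in control. The groups did not overlap, and Yap1 rose by 0.14 on the log2 scale (SE 0.04; edgeR's adjusted p = 0.0074). The call was lost when no filter on low counts was applied (log2 fold change 0.07, adjusted p = 0.21). Wwtr1 had 121, 118 and 127 CPM in the knockout-labelled libraries and 119, 140 and 140 CPM in control. Control replicate 1 lay among the knockout-labelled values and the other two lay above them. For Wwtr1 the log2 fold change was -0.12 (95% interval -0.27 to 0.03, adjusted p = 0.13 in edgeR), and it passed as lower without control replicate 1 (log2 fold change -0.15, adjusted p = 0.017) and with no filter (-0.19, adjusted p = 0.021). At 87.8% and 89.7%, most tested genes changed by at least as much as Yap1 and Wwtr1.

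The balance between the co-activators can be read within a library, where it does not depend on the scaling. The ratio of Wwtr1 to Yap1 counts was 0.937, 0.931 and 1.03 in the knockout-labelled libraries and 1.04, 1.19 and 1.24 in control. Every knockout-labelled ratio was below every control ratio, the closest being 1.035 in EphA4 knockout replicate 3 against 1.037 in control replicate 1. The mean difference was -0.26 on the log2 scale (exact permutation test over samples, two-sided, p = 0.10, the smallest that 3 against 3 allows, and 0.125 adjusted over 5 ratios). Neither this ratio nor the others below could pass 0.05 at this sample size.

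The TEAD genes moved apart. Tead1 had 246, 253 and 242 CPM in the knockout-labelled libraries and 153, 161 and 142 CPM in control. It was higher in every knockout-labelled library, with a log2 fold change of 0.70 ± 0.05 (SE; edgeR's adjusted p = 1.6e-06). Tead3 had 13.1, 13.0 and 12.3 CPM in the knockout-labelled libraries and 22.4, 17.7 and 17.5 CPM in control. It was lower in every knockout-labelled library, with a log2 fold change of -0.59 ± 0.11 (SE; edgeR's adjusted p = 0.0013), and control replicate 1 stood above the other controls. The count ratio of Tead3 to Tead1 was 0.0531, 0.0512 and 0.0510 in the knockout-labelled libraries and 0.146, 0.110 and 0.123 in control, a difference of -1.28 on the log2 scale with no overlap (exact permutation test, two-sided, p = 0.10).

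The remaining TEAD genes also went opposite ways. Tead4 rose to 102 ± 4.53 CPM in the knockout-labelled libraries, against 56.9 ± 1.70 CPM in control (SD, n = 3 each; log2 fold change 0.85, adjusted p = 5.4e-07 in edgeR). Tead2 fell to 44.1 ± 4.53 CPM in the knockout-labelled libraries, against 92.7 ± 4.02 CPM in control (SD, n = 3 each; log2 fold change -1.07, adjusted p = 2.1e-06 in edgeR). Per kb of exons, which lets genes be compared, the 4 TEAD genes summed to 57.8 ± 0.85 CPM per kb in the knockout-labelled libraries and 49.3 ± 0.71 CPM per kb in control. Tead4 made up 49.2% ± 1.54 of that sum in the knockout-labelled libraries and 32.1% ± 0.96 in control (SD, n = 3 each). Tead1 made up 31.5% ± 0.88 and 22.8% ± 1.62, Tead2 15.9% ± 1.71 and 39.3% ± 1.23, and Tead3 3.30% ± 0.14 and 5.80% ± 0.77, the knockout-labelled libraries being given first. Tead4 was thus the leading TEAD transcript per length in the knockout-labelled libraries and Tead2 in control.

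**Figure D3:**
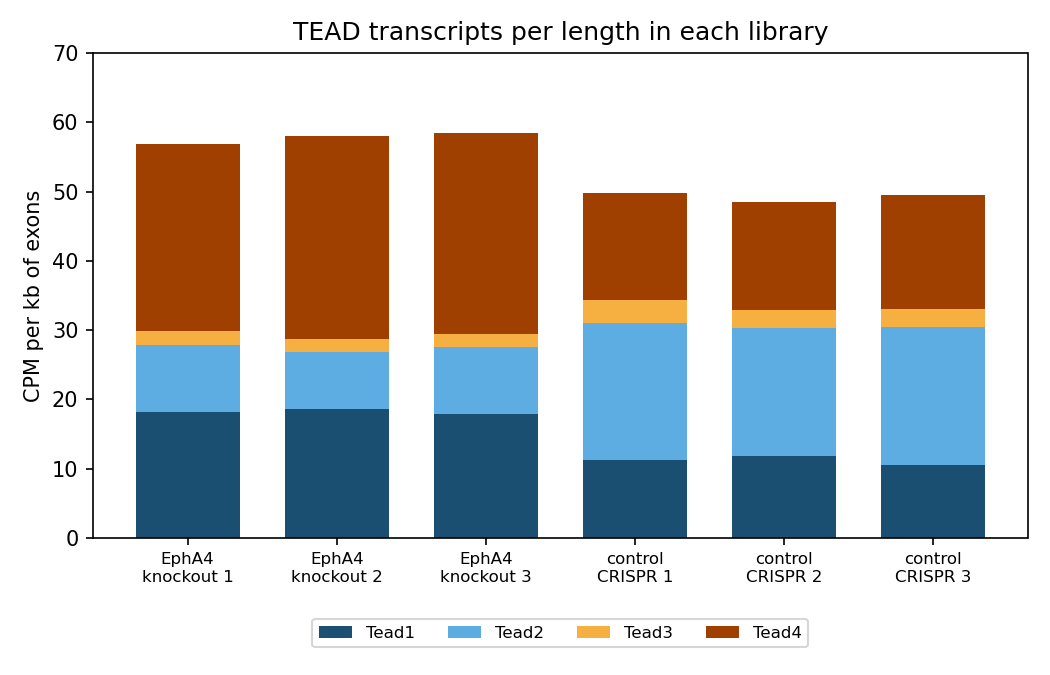
Levels of the 4 TEAD genes in each library, in CPM per kb of exons, stacked from 0, with the EphA4 knockout libraries on the left. The sums lie between 56.8 and 58.5 in the knockout-labelled libraries and between 48.5 and 49.8 in control, and the share of Tead2 is smaller in every knockout-labelled library.

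VGLL proteins compete with YAP and TAZ for TEAD. Vgll3 fell to 0.537 ± 0.25 CPM in the knockout-labelled libraries, against 8.95 ± 1.05 CPM in control (SD, n = 3 each; log2 fold change -4.05, adjusted p = 1.0e-05 in edgeR). Vgll4 had a log2 fold change of -0.11 (95% interval -0.33 to 0.10) and did not pass, and Vgll1 and Vgll2 had at most 1 count in any library and were not tested. Of the 6 TEAD and VGLL genes outside the members, 4 were tested, of which 1 rose and 2 fell, beside 32.7% higher and 38.8% lower over all tested genes.

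The 6 targets ranged from a fall in Ccn2 to a rise in Amotl2. Ccn2 encodes connective tissue growth factor, a secreted matricellular protein and a standard readout of YAP activity. It had 158, 169 and 153 CPM in the knockout-labelled libraries and 415, 395 and 426 CPM in control. Every knockout-labelled library was far below every control library, and Ccn2 fell by 1.37 on the log2 scale (SE 0.05; edgeR's adjusted p = 3.4e-08). Of all tested genes, 24.4% changed by at least this much. An antisense gene model, Gm15270, covers 23.2% of the Ccn2 exons, and with no stated strand setting their reads cannot be told apart; Gm15270 itself had 28 to 51 counts in the knockout-labelled libraries and 94 to 166 in control, against 5605 or more for Ccn2.

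Ccn1, which encodes the related matricellular protein CYR61, changed far less. It had 815, 831 and 838 CPM in the knockout-labelled libraries and 967, 886 and 976 CPM in control. The groups did not overlap, and the log2 fold change was -0.19 (SE 0.05, adjusted p = 0.0048 in edgeR). Its call was lost without control replicate 1 or without control replicate 3 (adjusted p = 0.070 each). Within a library, the ratio of Ccn2 to Ccn1 counts was 0.194, 0.203 and 0.182 in the knockout-labelled libraries and 0.429, 0.446 and 0.437 in control, so that Ccn2 was 2.27-fold lower relative to Ccn1 (exact permutation test, two-sided, p = 0.10, adjusted 0.125). Of the other CCN genes only Ccn4 was tested, and it rose to 10.8 ± 0.92 CPM in the knockout-labelled libraries, against 6.66 ± 0.86 CPM in control (SD, n = 3 each; adjusted p = 0.0026 in edgeR). Ccn5 had 0 counts in all knockout-labelled libraries and 26, 11 and 10 in control, which is at least 15.1-fold lower when the group at 0 is given 3 counts in all, and at least 10.0-fold lower without control replicate 1. Ccn3 had 3, 0 and 10 counts in the knockout-labelled libraries and 35, 7 and 20 in control, so the groups overlapped. Ccn6 had none in any library.

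Ankrd1 encodes a muscle ankyrin repeat protein found in the nucleus and sarcomere and is a widely used YAP target. It had 493, 520 and 540 CPM in the knockout-labelled libraries and 609, 582 and 598 CPM in control. All knockout-labelled values were lower, by a log2 fold change of -0.20 ± 0.04 (SE; edgeR's adjusted p = 0.0022). Ankrd1 and Ccn1 thus moved together by a small amount that at least 82.7% of tested genes matched or exceeded.

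Amotl2 encodes a junctional angiomotin that binds YAP and holds it in the cytoplasm, and is itself a YAP target. It had 256, 262 and 251 CPM in the knockout-labelled libraries and 123, 115 and 110 CPM in control. Every knockout-labelled library was above every control library, with a log2 fold change of 1.14 ± 0.05 (SE; edgeR's adjusted p = 7.2e-08), and 29.9% of tested genes changed by at least this much. Its relative Amot, another angiomotin, rose to 148 ± 4.89 CPM in the knockout-labelled libraries, against 64.7 ± 2.15 CPM in control (SD, n = 3 each; log2 fold change 1.19, adjusted p = 4.2e-08 in edgeR). The ratio of Amotl2 to Amot counts was 1.71, 1.73 and 1.77 in the knockout-labelled libraries and 1.90, 1.72 and 1.75 in control, overlapping between groups with a difference of -0.04 on the log2 scale (exact permutation test, two-sided, p = 0.60). Amotl1, the remaining angiomotin gene, changed little (log2 fold change 0.13, adjusted p = 0.012 in edgeR) and lost its call with no filter (0.07, adjusted p = 0.26).

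Ajuba and Lats2, targets that feed back on the pathway, did not pass. Ajuba, a LIM protein that binds and inhibits LATS kinases, had 124, 120 and 116 CPM in the knockout-labelled libraries and 115, 110 and 112 CPM in control. The groups did not overlap but stood close, with a log2 fold change of 0.09 (95% interval 0.00 to 0.18, adjusted p = 0.059 in edgeR), and 6 of 16 alternative settings called it higher, among them leaving out EphA4 knockout replicate 3 (log2 fold change 0.18, adjusted p = 0.0056). Lats2, a kinase of YAP and TAZ, had 16.1, 14.4 and 13.1 CPM in the knockout-labelled libraries and 14.4, 15.3 and 12.7 CPM in control. Its groups overlapped, with a log2 fold change of 0.04 and a 95% interval of -0.22 to 0.31 (adjusted p = 0.75 in edgeR). A gene model on the same strand, Gm49361, covers 42.4% of the Lats2 exons and had 0 counts in every library, and how reads in the shared exons were assigned is not stated. Lats1, the partner kinase, rose to 107 ± 3.47 CPM in the knockout-labelled libraries, against 45.7 ± 3.85 CPM in control (SD, n = 3 each; log2 fold change 1.22, adjusted p = 3.4e-07 in edgeR). The ratio of Lats2 to Lats1 counts accordingly was 0.151, 0.132 and 0.127 in the knockout-labelled libraries and 0.343, 0.308 and 0.279 in control, 2.27-fold lower in the knockout-labelled libraries with no overlap (exact permutation test, two-sided, p = 0.10).

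Among Hippo kinases and their adaptors outside the members, 7 of 11 tested genes rose, 3 fell and 1 did not pass, beside 32.7% higher and 38.8% lower over all tested genes. Their median log2 fold change was 0.16, beside -0.04 over all tested genes. When a change beyond 1.5-fold was required, 4 of the 11 were higher and 2 lower, beside 5473 of all 15199 tested genes called in either direction. Besides Lats1, Mob1b, an adaptor that activates LATS kinases, rose by a log2 fold change of 0.90 ± 0.07 (SE; edgeR's adjusted p = 2.5e-06). The upstream TAO kinase genes split: Taok2 and Taok1 rose by log2 fold changes of 0.81 and 0.70, whereas Taok3 fell to 11.1 ± 1.18 CPM in the knockout-labelled libraries, against 32.2 ± 3.14 CPM in control (SD, n = 3 each; log2 fold change -1.53, adjusted p = 1.9e-06). Mink1, a MAP4K-type kinase, fell (log2 fold change -0.79, adjusted p = 7.6e-07). Of the MST kinases, Stk4 rose (0.54, adjusted p = 1.7e-05) and Stk3 fell by 0.16 on the log2 scale (adjusted p = 0.036), a call that each of the 6 fits without 1 library lost.

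Of 13 upstream regulators at junctions and membranes 12 were tested, of which 8 rose, 1 fell and 3 did not pass, beside the same 32.7% higher and 38.8% lower over all tested genes. Their median log2 fold change was 0.34. With a change beyond 1.5-fold required, 3 of the 12 were higher and 1 lower, beside 5473 of all 15199 tested genes called in either direction. Fat1, a giant atypical cadherin that acts on Hippo kinases, rose to 1699 ± 45.9 CPM in the knockout-labelled libraries, against 594 ± 39.1 CPM in control (SD, n = 3 each; log2 fold change 1.52, adjusted p = 4.0e-08 in edgeR). Nf2, which encodes the membrane adaptor merlin, rose by a log2 fold change of 0.70 (adjusted p = 2.4e-07), and Wwc2, a KIBRA relative, by 0.58 (adjusted p = 9.4e-07). Wtip, a LIM protein related to Ajuba, was the upstream regulator that fell, to 6.26 ± 0.79 CPM in the knockout-labelled libraries, against 30.9 ± 0.65 CPM in control (SD, n = 3 each; log2 fold change -2.30, adjusted p = 1.5e-07). Limd1, the remaining gene of that LIM family, rose by 0.35 (adjusted p = 0.00017), so the 3 relatives Limd1, Ajuba and Wtip differed from each other.

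**Figure D4:**
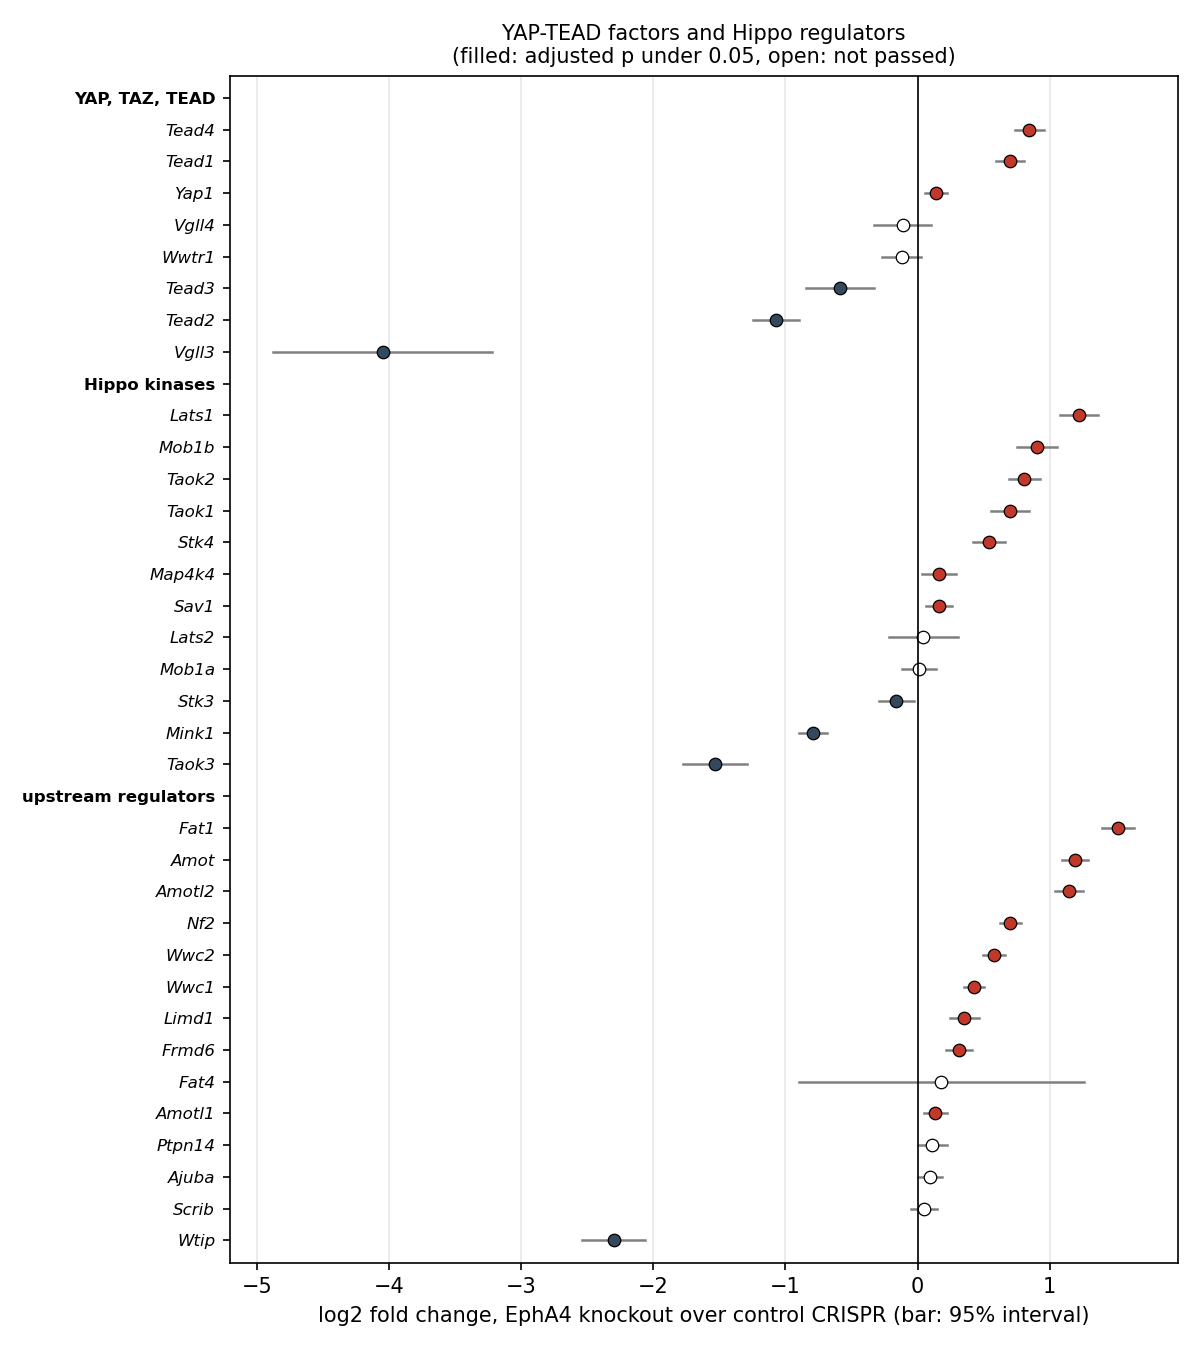
Log2 fold change (EphA4 knockout over control CRISPR) of YAP, TAZ, TEAD and VGLL genes, Hippo kinases and upstream regulators; points are estimates from edgeR, bars are 95% intervals, filled points passed an adjusted p of 0.05 and open points did not. Tead4 and Tead1 lie right of 0 and Tead3 and Tead2 left of it, and Vgll3 lies furthest left at -4.05.

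A published signature of 22 YAP/TAZ targets, which shares Ccn1, Ccn2, Ankrd1, Amotl2 and Lats2 with the members, had 21 tested genes, of which 7 rose, 9 fell and 5 did not pass, with a median log2 fold change of 0.02. These counts are near the 32.7% called higher and 38.8% called lower over all tested genes. Without those members, 6 rose, 6 fell and 4 did not pass of 16 tested, with a median of 0.07. Asap1, an Arf GTPase-activating protein gene, rose to 250 ± 6.10 CPM in the knockout-labelled libraries, against 124 ± 3.37 CPM in control (SD, n = 3 each; log2 fold change 1.01, adjusted p = 3.8e-08 in edgeR). Arhgef17, a guanine nucleotide exchange factor gene, and F3, which encodes tissue factor, rose by 0.51 and 0.48. The largest fall was in a gene of low level, Foxf2, a forkhead factor gene of mesenchyme. It had 0.210 ± 0.10 CPM in the knockout-labelled libraries and 3.20 ± 0.15 CPM in control (SD, n = 3 each; log2 fold change -3.91, adjusted p = 2.0e-05). Rbms3 had a log2 fold change of -3.16, Gadd45a of -2.33 and Fjx1 of -2.32. Of these Gadd45a, a stress-induced growth arrest gene, had the highest level, 9.15 ± 1.16 CPM in the knockout-labelled libraries and 46.1 ± 0.55 CPM in control (SD, n = 3 each).

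Among 7 other genes often read as YAP/TAZ targets, 6 were tested, of which 3 rose, 1 fell and 2 did not pass, beside 32.7% higher and 38.8% lower over all tested genes, with a median log2 fold change of 0.25. Thbs1, which encodes the matrix protein thrombospondin 1, rose to 1174 ± 10.1 CPM in the knockout-labelled libraries, against 667 ± 70.6 CPM in control (SD, n = 3 each; log2 fold change 0.82, adjusted p = 8.1e-06 in edgeR). Birc5, the survivin gene, and Areg, which encodes the EGF receptor ligand amphiregulin, rose by 0.49 and 0.38, and the endothelin gene Edn1 fell by 0.76 on the log2 scale. Fstl1 had 0 counts in the knockout-labelled libraries and 30, 2 and 9 in control, which is at least 13.2-fold lower when the group at 0 is given 3 counts in all, and at least 5.24-fold lower without control replicate 1. The matrix genes Col1a1 and Col3a1 of the fibroblast list were also lower in the knockout-labelled libraries, at 0.0466 ± 0.08 and 0.0998 ± 0.08 CPM. Their control levels were 14.8 ± 1.89 and 20.6 ± 0.70 CPM (SD, n = 3 each). Col1a2 of that list went the other way at a very low level and was not tested. It had 0.265 ± 0.04 CPM in the knockout-labelled libraries and 0.0440 ± 0.06 CPM in control (SD, n = 3 each). The part of cells carrying such markers in the lower Foxf2 and Fstl1 was not tested.

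**Figure D5:**
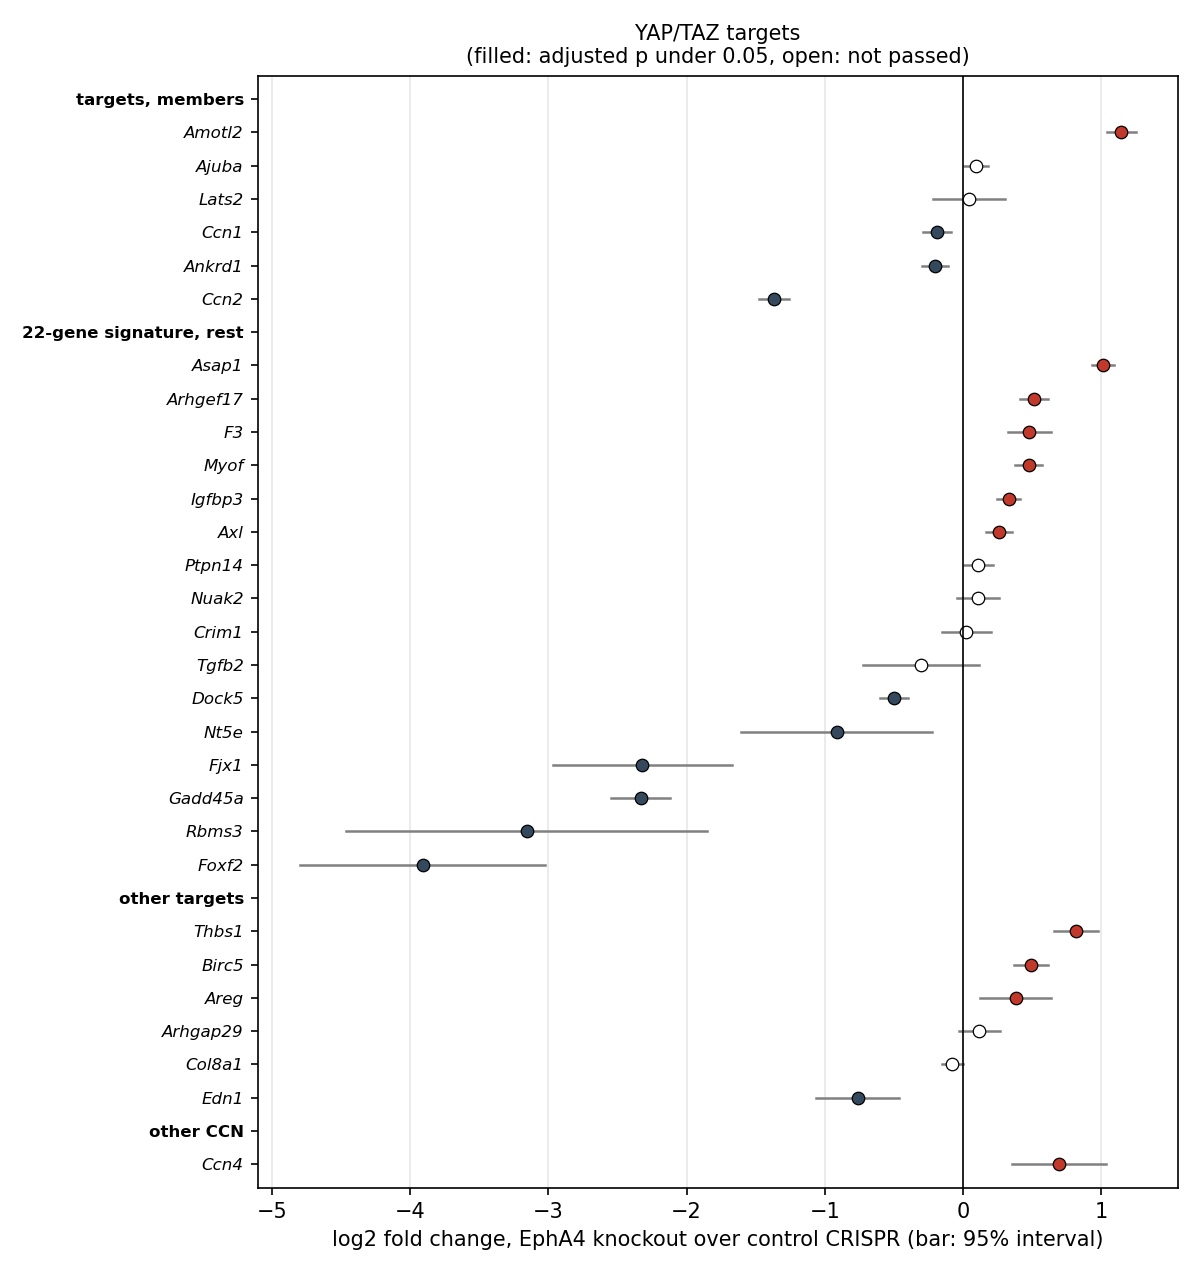
Log2 fold change (EphA4 knockout over control CRISPR) of YAP/TAZ targets, grouped as the 6 member targets, the tested rest of the 22-gene signature, other targets and other CCN genes; bars are 95% intervals, filled points passed an adjusted p of 0.05 and open points did not. Each of the first 3 groups has called genes on both sides of 0, from -3.91 for Foxf2 to 1.14 for Amotl2.

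Per kb of exons, Ccn1 was the most abundant member in both groups, at 410 ± 5.83 CPM per kb in the knockout-labelled libraries and 467 ± 24.5 CPM per kb in control (SD, n = 3 each), above 99.5% and 99.4% of tested genes. In the knockout-labelled libraries it was followed by Ankrd1 (179), Ccn2 (55.9), Amotl2 (40.7), Ajuba (32.9), Wwtr1 (25.6), Tead1 (18.2) and Yap1 (13.7), all as mean CPM per kb, and the libraries of each neighbouring pair in that order did not overlap. Lats2 (2.09) and Tead3 (1.90) came last there, and their libraries overlapped. In control the order was Ccn1, Ankrd1 (207), Ccn2 (144), Ajuba (30.8), Wwtr1 (27.8), Amotl2 (18.4), Yap1 (12.4), Tead1 (11.2), Tead3 (2.86) and Lats2 (2.03), with no overlap between neighbours. Amotl2 was thus above Ajuba and Wwtr1 in the knockout-labelled libraries and below both in control. Per kb of the longest transcript, Lats2 and Tead3 changed places in the knockout-labelled libraries, with means of 2.80 and 3.71, and Wwtr1, Tead1 and Yap1 kept their order there but stood closer, with means of 26.0, 24.8 and 24.0.

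The genes whose log2 CPM followed Ccn2 most closely over the 6 libraries were Zfas1, Selenom and Cblc, with Pearson correlations of 0.9998, 0.9997 and 0.9996, and 2828 of 9610 genes compared exceeded 0.95. For Ccn1 they were Bfar, Pdia3 and Park7, with correlations of 0.996, 0.995 and 0.991, and 127 genes exceeded 0.95. These are descriptions over 6 libraries that share the difference between 2 groups.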

How the data were processed

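Polyadenylated RNA of 6 MOC2 samples was sequenced, 3 labelled EphA4 knockout (clone H3) and 3 labelled control CRISPR, all in batch 1 per the labels. The deposited values are raw, unnormalized counts, with 1 row for each gene symbol. Per the submitters' processing notes, reads were aligned with STAR to GRCm39; how reads were counted, and whether by strand, is not given in the sources used here. Of the 55418 symbols, 55341 are in GENCODE mouse release M21 (GRCm38), which gave exon lengths and overlaps, without coordinates. Promoter sequences are RefSeq's on GRCm38.p6.

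Genes were filtered with filterByExpr (15199 of 28042 with any count), scaled by TMM and tested in R 4.3.3 with edgeR 4.0.16 (glmQLFit, glmQLFTest, group only, two-sided, Benjamini-Hochberg, threshold 0.05). SEs were derived from the F statistic, and 95% intervals use the test's degrees of freedom. Ratios used counts with a pseudocount of 0.5. A group at 0 counts was set against a floor of 3 counts, which covers counting error only. The gene test was tried on simulated data, where the pass criterion was changed 2 times after it was not met, each time with the results in view. The fit itself was not changed. Large changes in well-counted genes were recovered, smaller changes and low-count genes incompletely, and the share of false calls was above the nominal level, so calls of small changes carry more doubt than their adjusted p shows. Alternatives used limma 3.58.1 and DESeq2 1.42.0 among others; figures were drawn with matplotlib 3.10.9. The bounds without a control library were chosen after seeing the data. No per-sample column was left out. An item of the list of other targets is not reported here, and its counts were made without it.

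Members and lists were chosen with earlier results of these data known. Beside the 10 members, the text names, of each list, up to 4 called genes in each direction by size of change, the partners Lats1, Amot, Tead2 and Tead4, and for Ccn2 and Ccn1 the 3 genes of an average log2 CPM of at least 3 most correlated with them (log2 CPM with a prior count of 2). Genes outside this rule, such as Vgll4, Limd1, Amotl1, Stk4, Fstl1 and Ccn5, were named after their values were seen.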

Additional observations from a re-analysis of the deposited data

How the results depend on the processing

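Under all 16 alternatives for the test of single genes, Ccn2 (log2 fold change -1.43 to -1.28), Amotl2 (1.08 to 1.24) and Tead1 (0.63 to 0.77) kept direction and call, and Lats2 did not pass. Tead3 and Ankrd1 lost their calls in glmTreat against a fold of 1.5 alone (adjusted p = 0.48 and 1); Yap1, Wwtr1, Ccn1 and Ajuba, all within 0.26 of 0 on the log2 scale, changed side of the threshold in 2, 2, 3 and 6 settings. In glmTreat against that fold, 5473 genes were called in place of 10867, with 1 member lower, 4 Hippo kinase genes higher, 3 upstream regulators higher, 2 signature genes higher and 5 lower, 1 other target higher and 0 lower, and 0 CCN genes higher, since small changes no longer count. With 5 CPM required in 3 libraries, 5 signature genes were lower, as fewer genes were tested. Against 1 other target lower in the report, 2 were lower with upper-quartile factors and with library size alone. With no filter, 3 other targets and 1 CCN gene were lower, and the cause was not tested. In that fit the log2 fold changes of all members also moved down by a like amount. Yap1 had 0.07 in place of 0.14, Wwtr1 -0.19 in place of -0.12 and Ccn2 -1.43 in place of -1.37. Leaving out 1 library gave 0, 1 or 2 other CCN genes lower, against 0 with all libraries, and log2 differences for Amotl2 over Amot of -0.0738 to 0.000696, the reversal being without control CRISPR replicate 1. Leaving out any library gave 3 or 4 members higher and 3 or 4 lower.

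Same-numbered samples did not deviate together (correlations of their deviations of -0.0029, 0.029 and 0.0083), so the numbers are not treated as pairs. A replicate block gave 10339 calls, with 3 members higher and 4 lower as without it, and left the mean differences of the ratios unchanged by construction (-0.26, -1.28, -1.18, -1.18 and -0.04). Other scalings moved the median of all genes from -0.04 to between -0.05 and 0.00. Per kb of the longest transcript, the TEAD sum was 74.8 CPM per kb in the knockout-labelled libraries and 66.6 in control. The longer motif was found in 5 of 8 members. At 3 samples per group, an exact test of a ratio cannot go below p = 0.10.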
